A study of Homo sapiens with 6 samples.

Results

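The genes examined were the 4 ERBB receptor genes EGFR, ERBB2, ERBB3 and ERBB4 and the genes of 6 of their ligands, AREG, EREG, HBEGF, TGFA, BTC and NRG1. They were chosen by symbol, with earlier results of these data known, and all 10 were among the 36517 genes of the count table. They were measured by mRNA sequencing in MDA-MB-453, a human breast cancer cell line, in 6 libraries labelled day 3. In the control group (n = 3) the cells carried a negative-control hairpin (shNC, named lv_con). In the shtRF group (n = 3) they carried a hairpin against tRF-1-Ser (named lv_shtRF), which the study calls a tRF-1-Ser knockdown. Both hairpins were delivered by lentivirus, so every library came from transduced cells, and the labels name a single hairpin for the knockdown. tRF-1-Ser, a fragment of the 3′ trailer of a serine tRNA precursor, is not measured by these libraries, so the group names rest on the labels. The study reports a qPCR check of the knockdown in its cell models, but does not tie it to these libraries. The study's methods call the replicates biological, but separate cultures or transductions are not described, and the p-values measure the spread between these libraries.

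ERBB receptors are tyrosine kinases of the cell surface that act in pairs. A ligand that binds EGFR, ERBB3 or ERBB4 brings receptors together, and the phosphorylated pair feeds the RAS to ERK and PI3K to AKT pathways. ERBB2 has no known ligand of its own and serves as the favoured partner of the others, while ERBB3 has little kinase activity and docks PI3K. Amphiregulin (AREG) and transforming growth factor alpha (TGFA) bind EGFR. Epiregulin (EREG), betacellulin (BTC) and heparin-binding EGF-like growth factor (HBEGF) bind both EGFR and ERBB4, and neuregulins such as NRG1 bind ERBB3 and ERBB4. In breast tissue amphiregulin drives growth of the ducts, and excess ERBB2 defines a class of breast tumours.

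Libraries held between 63541413 and 78917459 counts. The Pearson correlation of log2(CPM + 1) over tested genes was at least 0.9973 within a group and at most 0.9894 between groups, where CPM is counts per 1000000 of the library total after TMM scaling. Among counts of 1 to 4, between 74.2% and 77.1% per library were even, against 49.7% to 50.8% of counts of 1000 and above, so low counts were mostly multiples of 2. Whether both mates of a read pair were counted is not given in the sources used here. The luminal markers KRT8, KRT18, KRT19, EPCAM, CDH1, FOXA1 and GATA3 were all present, at 17.5 to 2850 CPM, and the steroid receptors ESR1 and PGR were at most 0.387 CPM. Of these luminal markers, KRT8, KRT18 and CDH1 rose in shtRF by 0.79, 0.64 and 0.28 on the log2 scale and GATA3 fell by 0.14. KRT19, EPCAM and FOXA1 did not reach an adjusted p of 0.05 by edgeR. Of the markers of other cells, those of basal or mesenchymal cells summed to 4.11 to 5.43 CPM in control and 4.30 to 5.06 CPM in shtRF, those of leukocytes summed to at most 0.252 CPM and those of endothelium to at most 0.349 CPM. In the basal or mesenchymal list, TP63 fell by 0.54 and ZEB1 rose by 0.57 on the log2 scale. Fibroblast markers summed to 29.8 to 35.6 CPM in control and 20.6 to 21.4 CPM in shtRF, nearly all of it COL1A1. COL1A2 was at most 0.291 CPM and COL3A1 at most 0.0645 CPM over all libraries. PDGFRB was 0.0397 to 0.215 CPM in control and DCN at most 0.0307 CPM, and both had 0 counts in each shtRF library. The part of these markers in the results below was not tested.

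All 4 receptor transcripts fell in shtRF, EGFR and ERBB4 by more than 2-fold and ERBB2 and ERBB3 by less, while AREG and BTC rose. These 6 members passed an adjusted p of 0.05 by edgeR's quasi-likelihood test, 4 lower and 2 higher. HBEGF was tested and did not pass. TGFA, NRG1 and EREG had too few counts to be tested. Among all 19628 tested genes 39.5% passed the same threshold, with 18.9% lower and 20.6% higher, so a call as such was common in this comparison. In bulk RNA, fewer cells that express a gene and less of its RNA per cell cannot be told apart.

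**Figure D1:**
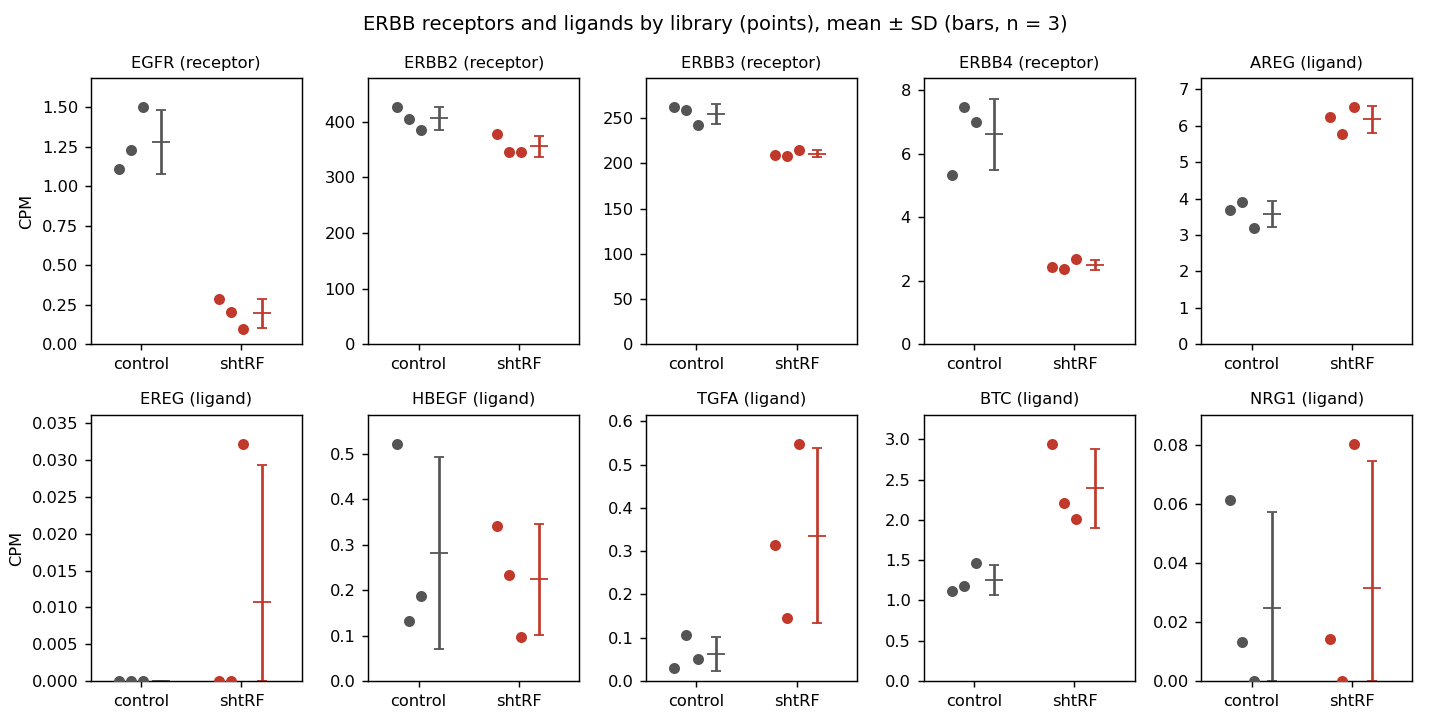
Level of each of the 10 genes in CPM (vertical axis, from 0, scaled separately for each gene) in the control and shtRF libraries. Points are libraries and bars are mean ± SD (n = 3), drawn down to 0 at most. The 4 receptors lie lower in every shtRF library, AREG, BTC and TGFA lie higher, and the groups overlap for HBEGF, NRG1 and EREG.

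EGFR, the founding member of the family, showed the largest fold change among the 7 tested members. Its counts were 72, 93 and 120 in control and 20, 14 and 6 in shtRF. In CPM these were 1.11, 1.23 and 1.50 against 0.285, 0.204 and 0.0968. Every shtRF library lay under every control library, although the gene was low in both groups, at percentile 3.57 of the tested genes by level per kilobase. The log2 fold change was -2.69 ± 0.35 (SE), a 6.44-fold fall with an adjusted p of 1.95e-06 by edgeR. The shtRF libraries alone would not have passed the low-count filter, as replicate 3 had 6 counts. EGFR thus entered the test through its higher control counts, so this adjusted p lends no support to the fall. By log2 fold change EGFR took rank 47 from the lowest among all tested genes.

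ERBB4, a neuregulin receptor linked to differentiation of the breast epithelium, fell as well. Its level was 5.35, 7.48 and 7.002 CPM in control and 2.43, 2.37 and 2.68 CPM in shtRF. The shtRF libraries were close together and all lay below the control libraries, of which replicate 1 was the lowest. Its log2 fold change was -1.41 ± 0.14 (SE; edgeR adjusted p = 4.06e-08), a 2.66-fold fall. A fall of over 2-fold with an adjusted p under 0.05 was found for 3.11% of all tested genes.

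The abundant pair, ERBB2 and ERBB3, changed little by comparison. ERBB2 stood at 426, 405 and 385 CPM in control and 378, 345 and 345 CPM in shtRF, so the groups were separated by a narrow gap. The log2 fold change was -0.19 ± 0.06 (SE; 95% confidence interval -0.31 to -0.07), a level 12.2% lower, with an adjusted p of 0.0114 by edgeR. That call was lost without control replicate 1 (adjusted p = 0.0664), without shtRF replicate 2 (0.0614) and without shtRF replicate 3 (0.0818), at log2 fold changes of -0.16 in each, and the adjusted p ran from 0.00243 to 0.0818 over 16 alternatives by edgeR, DESeq2 and limma.

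ERBB3 stood at 263, 259 and 242 CPM in control and 209, 209 and 215 CPM in shtRF. The groups did not overlap and the shtRF libraries differed little from each other. The log2 fold change was -0.27 ± 0.05 (SE; 95% confidence interval -0.38 to -0.16), a level 17.1% lower (edgeR adjusted p = 2.71e-04). Both genes are far more abundant than EGFR and ERBB4, and in CPM their group means differed by more.

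**Figure D2:**
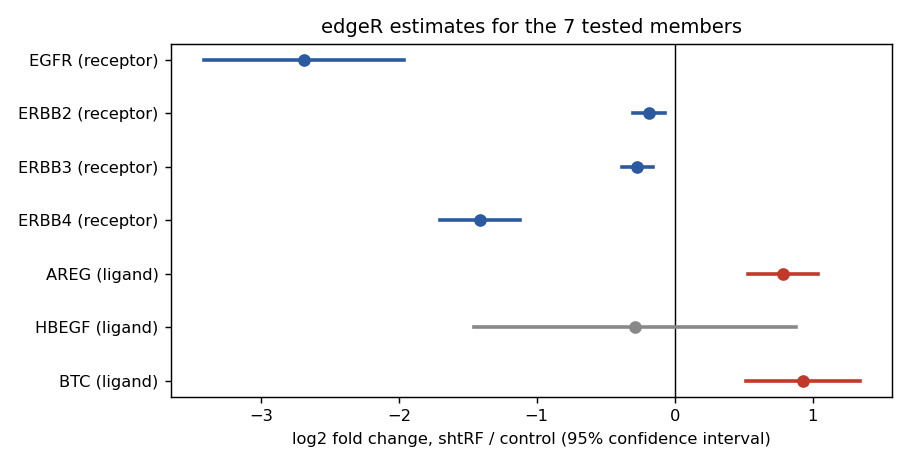
Log2 fold change of shtRF over control (horizontal axis) with its 95% confidence interval for the 7 members tested with edgeR. Intervals of the 4 receptors lie below 0 and those of AREG and BTC above it, whereas that of HBEGF, from -1.45 to 0.88, includes 0.

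The receptor genes lie on different chromosomes, EGFR at chr7:55019021-55211628, ERBB4 at chr2:211375717-212538841, ERBB2 at chr17:39687914-39730426 and ERBB3 at chr12:56079857-56103505 (GRCh38, as in the count table). EGFR, ERBB2 and ERBB3 lie on the plus strand and ERBB4 on the minus strand. ERBB4 shares no exonic base with another gene of the table, EGFR shares 1.49%, ERBB3 0.358% and ERBB2 7.41%. The bases shared by ERBB2 belong to MIEN1 and PGAP3 on the opposite strand, and whether the counting used strand is not given in the sources used here. The stretches in front of the start sites of EGFR and ERBB4 are shown because these receptors fell most. They are the 250 bases before the RefSeq start (GRCh38.p14), given 5′ to 3′ on the strand of the gene, at chr7:55018767-55019016 on the plus strand for EGFR and chr2:212538803-212539052 on the minus strand for ERBB4, with motif matches in capitals. EGFR has 2 entries, and the one next to its start in the count table is shown. The ERBB4 window reaches into the gene as counted, which starts at 212538841.
EGFR: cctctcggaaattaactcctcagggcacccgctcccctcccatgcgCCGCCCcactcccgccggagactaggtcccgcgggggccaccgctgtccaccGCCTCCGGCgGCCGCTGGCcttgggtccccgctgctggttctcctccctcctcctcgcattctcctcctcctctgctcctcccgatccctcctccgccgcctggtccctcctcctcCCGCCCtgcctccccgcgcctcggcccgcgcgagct
ERBB4: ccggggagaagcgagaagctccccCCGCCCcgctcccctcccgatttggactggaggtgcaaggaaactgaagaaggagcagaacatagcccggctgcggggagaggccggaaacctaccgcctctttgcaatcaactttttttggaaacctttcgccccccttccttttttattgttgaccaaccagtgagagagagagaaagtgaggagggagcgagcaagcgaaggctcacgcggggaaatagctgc

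Motifs searched on both strands included the cyclic AMP response element TGACGTCA, the AP-1 site TGANTCA, the AP-2 site GCCNNNGGC, the GC box GGGCGG, the TATA box TATAAA, the MYC E-box CACGTG and the EGR site GCGNGGGCG. The EGFR window is 73.6% G or C and held GC boxes from 204 and from 36 bases before the start, and AP-2 sites from 152 and from 142 bases before it. The ERBB4 window held a GC box from 226 bases before the start and none of the other motifs. No matches overlapped. Of 35116 windows of this length in the table, 42.6% held a GC box and 19.8% an AP-2 site. A match describes letters and not binding. RefSeq entries were found for 8 of the 10 members, all but ERBB3 and NRG1.

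Among the 6 ligands, AREG was the most abundant per kilobase and rose. It was 3.67, 3.89 and 3.19 CPM in control and 6.24, 5.77 and 6.51 CPM in shtRF, with every shtRF library above every control library. Its log2 fold change was 0.78 ± 0.12 (SE; edgeR adjusted p = 2.15e-05), a 1.72-fold rise.

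BTC, whose product binds both EGFR and ERBB4, had 73, 89 and 117 counts in control and 207, 152 and 125 in shtRF. In CPM it was 1.122, 1.18 and 1.47 against 2.95, 2.21 and 2.02, so the groups were separate but the shtRF libraries were spread out, with replicate 1 the highest. The log2 fold change was 0.93 ± 0.20 (SE; edgeR adjusted p = 6.97e-04), a 1.90-fold rise. The groups did not overlap for any of the 6 called members, and this held for 48.7% of all tested genes.

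TGFA, a classical EGFR ligand, was barely detected in control, with 2, 8 and 4 counts, and had 22, 10 and 34 counts in shtRF. Each shtRF library lay above each control library, and all 6 counts are even. Its mean level was 0.0623 ± 0.039 CPM for control and 0.336 ± 0.202 CPM for shtRF (SD, n = 3). The gene did not pass the low-count filter, and an exact two-sided permutation test of the 6 CPM values gave p = 0.1, the smallest it can give with 3 libraries against 3. With all genes of at least 1 count kept, the log2 fold change was 2.36 by edgeR (adjusted p = 0.00221). By DESeq2 it was 2.41 (adjusted p = 0.00828), but DESeq2 also set low genes aside and gave an adjusted p to 20941 genes only. In the 6 fits that each left out a library TGFA passed the filter through its higher shtRF counts, so these fits lend no support. Without shtRF replicate 3 TGFA was not called (edgeR adjusted p = 0.0678).

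HBEGF, which binds heparan sulphate and is shed from the cell surface, had 34, 10 and 15 counts in control and 24, 16 and 6 in shtRF. The groups overlapped widely, with control replicate 1 the highest of all. The log2 fold change of -0.29 (95% confidence interval -1.45 to 0.88; edgeR adjusted p = 0.729) does not exclude a 2-fold fall, so a difference was not detectable at this depth.

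NRG1 and EREG were at the edge of detection. NRG1, the main ligand of ERBB3, had 4, 1 and 0 counts in control and 1, 0 and 5 in shtRF, and the exact permutation test gave p = 0.7. EREG had 0 counts in every library but shtRF replicate 3, which had 2. A count of 0 allows up to 3 counts, or 0.0376 to 0.0484 CPM depending on the library, and this limit covers counting error only. It would be higher if both mates of a pair were counted. No fold is given for either gene.

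AREG, EREG and BTC lie near each other at chr4:74445134-74455009, chr4:74365143-74388751 and chr4:74744759-74794686. The windows before AREG (chr4:74444886-74445135, plus strand) and BTC (chr4:74794524-74794773, minus strand) are shown because both genes rose, written as above. The BTC window is placed by the RefSeq start and reaches well into the gene as counted, which starts at 74794686.
AREG: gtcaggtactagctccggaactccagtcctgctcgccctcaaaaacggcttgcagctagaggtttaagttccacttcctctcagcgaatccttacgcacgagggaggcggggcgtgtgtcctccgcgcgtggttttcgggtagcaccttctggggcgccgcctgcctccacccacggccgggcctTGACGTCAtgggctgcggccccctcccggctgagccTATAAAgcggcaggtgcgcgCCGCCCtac
BTC: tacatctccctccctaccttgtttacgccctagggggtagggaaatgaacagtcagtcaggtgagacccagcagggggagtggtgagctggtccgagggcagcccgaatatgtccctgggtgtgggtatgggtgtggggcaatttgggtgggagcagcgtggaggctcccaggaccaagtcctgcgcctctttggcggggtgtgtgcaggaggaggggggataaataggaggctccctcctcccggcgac

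The AREG window held a cyclic AMP response element from 65 bases before the start, a TATA box from 29 and a GC box from 9 bases before it, with no overlap between them. The response element was found in 1.65% of all windows and the TATA box in 10.7%. The BTC window held none of these motifs. AP-1 sites (6.57% of windows), E-boxes (6.34%) and EGR sites (8.41%) were absent from all 4 windows shown.

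Levels of different genes were compared as RPKM, the counts per kilobase of exon and per 1000000 counts of the library. In control the order was ERBB2 (40.0 ± 2.16), ERBB3 (29.9 ± 1.41), AREG (2.22 ± 0.235), ERBB4 (0.517 ± 0.0886), BTC (0.454 ± 0.0642), EGFR (0.104 ± 0.016), HBEGF (0.0947 ± 0.0711), TGFA (0.0128 ± 0.0081), NRG1 (0.0022 ± 0.0029) and EREG (0), in mean RPKM ± SD over 3 libraries. The ranges of ERBB4 and BTC overlapped there, as did those of EGFR and HBEGF. By level per kilobase ERBB2 stood at percentile 93.7 and ERBB3 at 91.3 of the tested genes, against 54.9 for AREG, 27.1 for BTC and 18.7 for ERBB4.

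In shtRF the top of the order stayed ERBB2 (33.9 ± 2.61), ERBB3 (23.9 ± 0.653) and AREG (3.68 ± 0.274 RPKM). BTC (0.836 ± 0.191) now stood above ERBB4 (0.188 ± 0.0128) with no overlap of their libraries, and EGFR (0.0154 ± 0.0077) stood below HBEGF (0.0732 ± 0.0414) and TGFA (0.0665 ± 0.0399). HBEGF and TGFA overlapped, and so did NRG1 and EREG. ERBB2 and ERBB3 together thus remained nearly all of the receptor RNA. ERBB2 made up 56.3% to 57.3% of the summed receptor RPKM in control and 57.1% to 60.1% in shtRF, whereas the share of ERBB4 was 0.570% to 0.823% in control and 0.307% to 0.351% in shtRF.

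The summed RPKM of the 4 receptors was 66.7 to 73.4 in control and 55.5 to 61.4 in shtRF, and that of the 6 ligands 2.56 to 2.92 and 4.22 to 5.05. Receptor RNA was therefore 24.5 to 26.1 times ligand RNA per kilobase in control and 12.1 to 13.2 times in shtRF. AREG carried 75.6% to 83.0% of the ligand sum over all 6 libraries. These sums are given as a description, with no test.

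**Figure D3:**
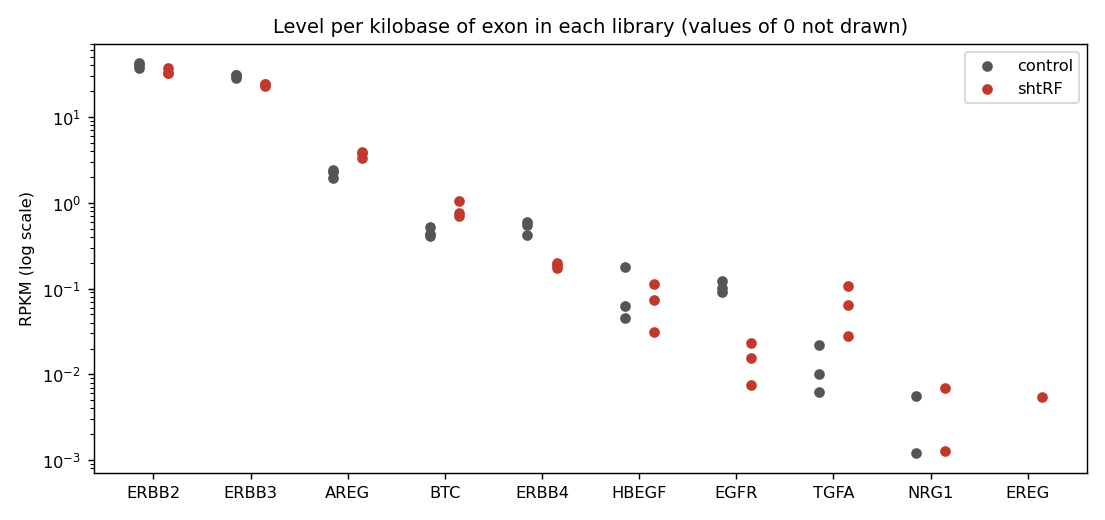
RPKM on a log scale (vertical axis) of each member in the control and shtRF libraries (points), ordered by the mean over all libraries, with values of 0 left out. ERBB2 and ERBB3 lie between 23.2 and 42.0 RPKM, AREG between 1.96 and 3.86, and EGFR falls from about the level of HBEGF in control to below it in shtRF.

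The genes of 5 other ligands were examined as well. NRG3, which activates ERBB4, was 6.75, 7.76 and 7.10 CPM in control and 4.43, 4.89 and 4.29 CPM in shtRF, with no overlap, and fell by 0.67 on the log2 scale (edgeR adjusted p = 4.87e-05). NRG4, another ERBB4 ligand, fell by 0.67 as well, from 1.56 ± 0.393 to 0.978 ± 0.267 CPM (SD, n = 3; edgeR adjusted p = 0.0397), but it shares 38.1% of its exonic sequence with overlapping genes. EGF had a log2 fold change of -0.38 ± 0.29 and NRG2 of -0.52 ± 0.45 (SE), neither past the threshold. EPGN had 2 to 21 counts per library and was not tested.

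Across 8 lists of genes that act around the receptors, 117 of 124 genes were tested, of which 29 were higher and 34 lower with an adjusted p under 0.05 by edgeR. That is 53.8% of them, against 39.5% of all tested genes. The lists were chosen with earlier results of these data known, so this contrast is a description only. The median log2 fold change of the listed genes was -0.02, against -0.0025 over all tested genes. The lists thus moved in both directions. Within each list the genes named are those with the largest changes at a mean of at least 1 CPM, unless stated.

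Of 10 tested genes of ligand processing, 4 were higher and 2 lower. The proprotein convertases FURIN and PCSK6, which cut precursors of secreted and surface proteins, rose by 0.94 and 0.91 on the log2 scale, and PCSK5 of the same family fell by 1.11. FURIN was at 11.4 ± 0.286 CPM in the control group and at 22.0 ± 1.11 CPM, in the shtRF group (SD, n = 3). PCSK6 shares 19.96% of its exonic sequence with overlapping genes. RHBDF2, a partner of the sheddase ADAM17, fell by 0.28, and ADAM17 itself, which releases AREG, TGFA and HBEGF from the membrane, had a log2 fold change of -0.09 and did not pass (24.1% of its exonic sequence is shared). The sheddase ADAM10, which releases BTC, rose by 0.30. ADAM17 and ADAM10 are named for their ligands, after their values were seen.

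Of 22 tested adaptors and chaperones, 5 were higher and 6 lower. GRB2, the adaptor that links receptors to RAS, fell by 0.47 in log2 units, from 491 ± 8.997 CPM to 355 ± 6.63 CPM (SD, n = 3; edgeR adjusted p = 1.94e-07). GRB7, an adaptor encoded next to ERBB2, fell by 0.25. GAB2, a docking protein for PI3K, rose by 0.61 and HSP90AA1, a chaperone that stabilises ERBB2, rose by 0.58. SRC, a kinase that works with these receptors, had the lowest log2 fold change of all 8 lists (-2.08 ± 0.53, SE; edgeR adjusted p = 0.00317), with 26, 28 and 41 counts in control and 2, 9 and 9 in shtRF. SRC passed the low-count filter through its higher control counts alone, so the adjusted p lends no support to this fall. Each shtRF library did lie below each control library. SRC lay under the minimum for naming and is mentioned after its values were seen.

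Of 12 genes of the RAS to ERK cascade, 3 were higher and 1 lower. BRAF, a kinase of the cascade, fell by 0.27 and shares 11.9% of its exonic sequence with overlapping genes. Of 18 genes of the PI3K to AKT arm, 4 were higher and 5 lower. INPP4B, a phosphatase that removes PI3K products, rose from 4.94 ± 0.16 to 9.79 ± 0.745 CPM (SD, n = 3) and TSC2, a brake on mTOR, rose by 0.62. The catalytic subunit gene PIK3CB fell by 0.49 and the regulatory subunit gene PIK3R1 by 0.30.

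Of 24 feedback inhibitors of the receptors and of ERK, 8 were higher and 6 lower, with a median of 0.09. SPRY4, a Sprouty inhibitor of RAS signalling, rose by 1.33 in log2 units, from 16.1 ± 2.95 CPM to 40.5 ± 0.728 CPM (SD, n = 3; edgeR adjusted p = 9.07e-11). CBLB, a ubiquitin ligase that sends receptors for degradation, rose by 0.84. The phosphatase gene DUSP5 fell by 0.76 and SOCS5 by 0.37. Members of this list therefore moved in opposite directions.

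Of 11 tested transcripts that respond to ERK, 5 were lower and 1 was higher, with a median of -0.27. EGR1, an early growth response factor, fell by 1.71 in log2 units, from 5.34 ± 0.478 CPM to 1.63 ± 0.246 CPM (SD, n = 3; edgeR adjusted p = 6.19e-09), and MYC fell by 1.48. ETV5, an ETS factor, rose from 1.13 ± 0.228 to 3.32 ± 0.862 CPM (edgeR adjusted p = 2.66e-06). Of 16 regulators of ERBB transcription, 4 were higher and 7 lower. WWTR1, which encodes the coactivator TAZ, fell by 0.78 on the log2 scale. ELF3, an epithelial ETS factor, rose by 0.72 and shares 16.9% of its exonic sequence with overlapping genes, and FOXO4, a forkhead factor, rose by 0.46.

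**Figure D4:**
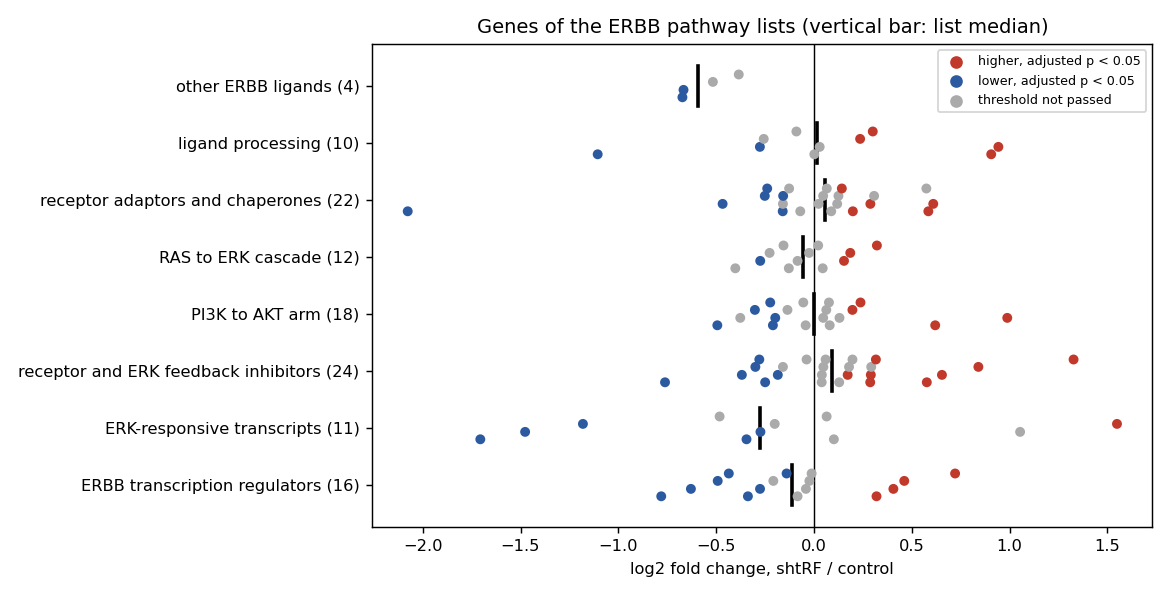
Log2 fold change of shtRF over control (horizontal axis) of the 117 tested genes (points) in 8 lists, coloured by edgeR call, with the median of each list as a vertical bar and the number tested in parentheses. Points lie on both sides of 0 in every list except the other ligands, and SRC is the point near -2.08.

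Whether neighbours on the chromosome differed as well was examined within 250 kb. Around ERBB2 (chr17:39437914-39980426) 13 of 21 genes were tested, and 2 were lower and 1 higher. The lower genes were ERBB2 itself and the adjacent GRB7. MIEN1, which overlaps the end of ERBB2 on the opposite strand and shares 24.9% of its exonic sequence, rose by 0.20 (edgeR adjusted p = 0.0199). CDK12, with a log2 fold change of -0.06 ± 0.05 (SE), STARD3 (-0.04 ± 0.06) and ORMDL3 (0.06 ± 0.06) did not pass, nor did PGAP3 (0.23 ± 0.09), PNMT (-1.58 ± 0.73, at 0.154 CPM in control) or the remaining 5 genes. Neighbours of ERBB2 thus had log2 fold changes of either sign.

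Around AREG, EREG and BTC (chr4:74115143-75044686) 4 of 9 genes were tested, and 3 rose, where 20.6% of all tested genes were higher. Beside AREG and BTC this was PARM1, a mucin-like gene, which rose by 1.44 in log2 units, from 18.6 ± 1.13 CPM to 50.6 ± 2.35 CPM (SD, n = 3; edgeR adjusted p = 1.22e-13). The noncoding gene RP11-629B11.5 at the other end had a log2 fold change of -0.40 ± 0.25 (SE) and did not pass. EREG and EPGN, which precede AREG on the chromosome, were too low to test.

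**Figure D5:**
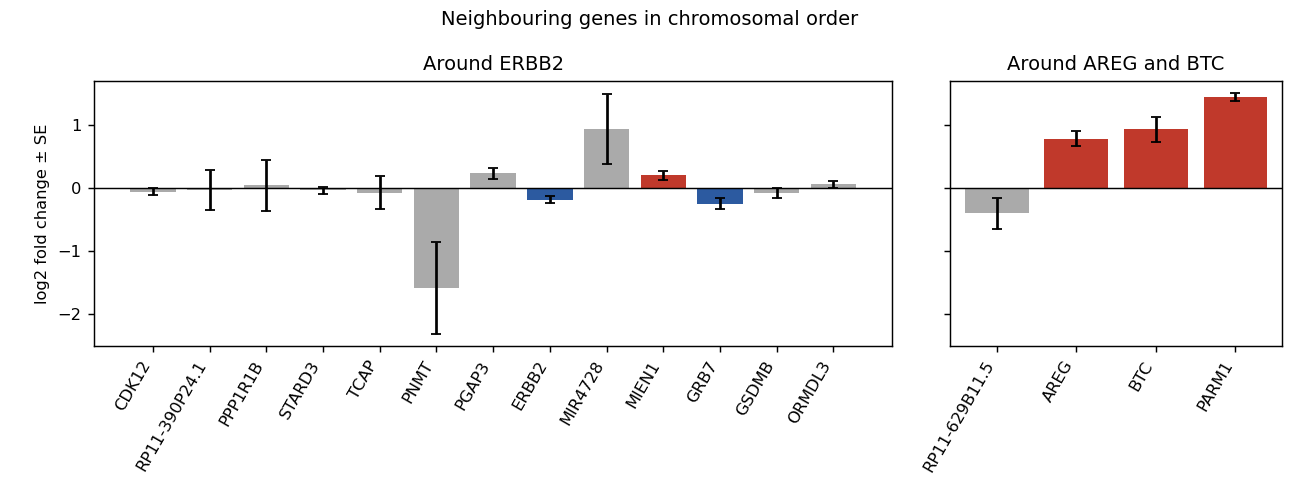
Log2 fold change ± SE (vertical axis, bars from 0) of the tested genes around ERBB2 and around AREG and BTC, in chromosomal order, coloured as higher (red), lower (blue) or not past the threshold (grey). AREG, BTC and PARM1 stand above 0 together, whereas bars around ERBB2 are mixed in sign.

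The genes whose pattern was most like that of ERBB4, the member with the smallest adjusted p, were ZBTB41 (r = 0.9985), FNTA (0.9985) and LAP3 (0.9984), by the Pearson correlation of log2 CPM over the 6 libraries. The libraries form 2 groups, and r takes in the difference between them, so it is a description only, and 961 of 14698 genes (6.54%) had r above 0.95. These 3 genes fell much less than ERBB4, by 0.32, 0.41 and 0.40 on the log2 scale.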

How the data were processed

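mRNA was sequenced as read pairs from stranded libraries of 3 control and 3 shtRF samples. The authors deposited raw counts per gene with exon coordinates and gene lengths. The submitters' notes name Trimmomatic 0.36, featureCounts of Subread 1.5.1, edgeR 3.12.1 and GRCh38, and the aligner is not given in the sources used here. The deposited RPKM table was not used, as it holds ERBB3 alone of the members in the part given, and RPKM was computed from the counts. Groups were taken from sample titles.

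Genes were tested with edgeR 4.0.16 (R 4.3.3): filterByExpr with a minimum count of 10, TMM, and the quasi-likelihood test of a model with group alone, fitted to all 6 libraries, adjusted by Benjamini-Hochberg over 19628 genes. Standard errors come from the estimate and its F statistic. Members below the filter were given an exact permutation test (scipy 1.17.1). Alternatives used DESeq2 1.42.0 and limma 3.58.1. The fits were also run on simulated data in which the changed genes differed by at least 2-fold. That run did not cover smaller changes such as those of ERBB2 and ERBB3. Promoters came from RefSeq (GRCh38.p14). Named genes were all members, the 2 largest rises and falls per list at an adjusted p under 0.05 and a mean of at least 1 CPM, all other ligands, genes within 250 kb, and 3 genes most like ERBB4. Some genes that the rule names are not reported here. The members and lists were chosen with earlier results of these data known.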

Additional observations from a re-analysis of the deposited data

How the results depend on the processing

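Of 108 values of the 7 tested members under 16 alternatives, 103 kept their direction and side of the threshold. The alternatives were RLE and upper quartile scaling, 3 low-count filters, DESeq2, limma-trend on log2(RPKM + 1) and log2(RPKM + 0.1), halved counts, a replicate block and 6 fits that each left out a library. Without a library, ERBB2 ran from -0.24 to -0.16 and lost its call without control replicate 1, shtRF replicate 2 or shtRF replicate 3. HBEGF, never called, ran from -0.73 to 0.48 and changed sign without control replicate 1 (0.48) and without shtRF replicate 3 (0.06). The cause was not tested. The log2(RPKM + 1) scale compresses low genes and gave -0.12 for EGFR, -0.35 for ERBB4 and 0.33 for BTC, all still called. With upper quartile scaling 3508 genes were higher and 4174 lower, in place of 4046 and 3704. HBEGF had no value with a minimum of 10 counts in every library, with 1 CPM in 3 libraries or with halved counts, nor EGFR under the first of these. The scaling, limma-trend, halved-count and replicate-block fits used the main filter, which EGFR passed with the help of its control counts. With 1 CPM in 3 libraries EGFR was kept through its control libraries alone. Its agreement in all of these fits lends no further support.

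Replicate numbers did not pair libraries. The correlation of deviations from the group mean was 0.02, -0.0029 and 0.0045 for libraries of the same number, and not every library correlated best with its own number. With the replicate block 4123 genes were higher and 3776 lower, EGFR was at -2.70 and ERBB2 at -0.19, and no member's call changed.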
